A study of Mus musculus with 10 samples.

Results

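The genes described here are 10 genes of bone morphogenetic protein (BMP) signalling and its Id targets: the ligand genes Bmp2 and Bmp4, the receptor genes Bmpr1a and Bmpr2, the inhibitory SMAD genes Smad6 and Smad7, the signal-carrying SMAD gene Smad9, and Id1, Id2 and Id3. They were chosen by name, and all 10 were found by gene symbol among 19505 genes measured on 10 single-colour arrays, each through 1 probe set. RNA came from small intestine organoids of BALB/c mice, self-organising cultures of gut epithelium grown in domes of basement membrane matrix. All cultures received recombinant mouse TNF at 20 ng/ml for 48 h. In 5 of them it was given together with 5 mg/ml pegtarazimod, a peptide joined to polyethylene glycol (PEG) known to block the classical complement pathway and the enzyme myeloperoxidase, and in the other 5 with PEG at 2.625 mM as vehicle. The series calls the 5 samples of each group biological replicates, and the sources used here do not say what differed between them, nor whether the growth medium held a BMP antagonist. They also do not say whether vehicle and pegtarazimod carried the same amount of PEG, so an effect of the peptide and one of unequal PEG cannot be told apart. No cultures without TNF were analysed here.

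BMP ligands bind pairs of type I and type II receptor kinases, which phosphorylate SMAD1, SMAD5 and SMAD9. These join SMAD4 and enter the nucleus, where Id1, Id2, Id3, Smad6 and Smad7 are among the best known genes they switch on. In the intestine BMP signalling is low at the crypt base, where antagonists made by neighbouring stroma protect the stem cells, and high on the villus, where it restrains proliferation and promotes late enterocyte functions. Id proteins have a helix-loop-helix but no DNA-binding region, and hold E proteins and other basic helix-loop-helix factors away from DNA. Id2 is also known as a target of Wnt and beta-catenin signalling in gut epithelium.

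Id2 fell with pegtarazimod, 2.28-fold (95% interval 1.91 to 2.73), and was the 1 of the 10 genes that passed the test. Id3 differed by -0.38 and missed the threshold (limma adjusted p = 0.0869). It passed in fits with a term for the subsets of replicates (0.0436) or for the replicate number (0.0194). Id1, the textbook readout of BMP signalling, Smad6 and Smad7 showed no difference beyond the spread between arrays. Among other genes of the pathway, the BMP co-receptor gene Rgmb fell 2.0-fold and the ligand gene Bmp7 1.79-fold, whereas the ligand gene Bmp3 rose 1.69-fold. The design sets cultures with pegtarazimod against cultures with vehicle, both under TNF. Values are log2 expression, with differences given as pegtarazimod minus vehicle.

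The bases before the Id2 and Id3 start sites are shown because Id2 was the gene that fell and Id3 had the next largest difference of the 10. They come from RefSeq (GRCm38.p6), where 7 of the 10 genes had an entry and Bmp2, Id1 and Smad7 had none. The 250 bases before the start are printed 5′ to 3′ on the gene's strand, for Id2 chr12:25096093-25096342 (minus strand) and for Id3 chr4:136143572-136143821 (plus strand). Capitals mark GGCGCC and GGAGCC, GC-rich elements known to be bound by SMAD1 and SMAD5, searched on both strands, so that GGAGCC also appears as GGCTCC.
Id2: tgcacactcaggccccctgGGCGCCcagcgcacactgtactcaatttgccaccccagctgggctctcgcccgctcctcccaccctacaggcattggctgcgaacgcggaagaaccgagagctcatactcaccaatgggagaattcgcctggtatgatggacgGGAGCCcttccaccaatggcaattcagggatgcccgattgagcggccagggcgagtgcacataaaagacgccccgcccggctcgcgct
Id3: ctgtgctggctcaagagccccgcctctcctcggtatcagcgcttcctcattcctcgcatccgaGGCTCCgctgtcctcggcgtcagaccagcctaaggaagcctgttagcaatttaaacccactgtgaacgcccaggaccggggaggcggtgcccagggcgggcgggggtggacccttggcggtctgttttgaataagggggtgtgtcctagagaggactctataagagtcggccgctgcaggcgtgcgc

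The Id2 window held GGCGCC once, 231 to 226 bases before the start, and GGAGCC once, 88 to 83 bases before it. The Id3 window held GGAGCC once, 187 to 182 bases before the start, and no GGCGCC. Among the 7 windows found, 4 held GGCGCC (Bmpr1a, Bmpr2, Id2 and Smad9) and 5 held GGAGCC (Bmp4, Id2, Id3, Smad6 and Smad9), against 9.59% and 26.0% of 32851 RefSeq windows of this length. The 7 windows were also richer in G and C, at 62.8% to 78.8% against a median of 52.4%. The shorter SMAD3 and SMAD4 element CAGAC lay in the Id3 window 2 times and in none of the other 6 (42.2% of all windows). The pattern CTTTGNT, in which N is any base, was searched for TCF/LEF sites and lay in none of the 7 (16.0% of all windows). Other forms of the TCF/LEF site were not searched. The E-box CANNTG lay in 3 of the 7, Bmp4, Id2 and Smad9 (66.2%). The elements were searched on both strands, and none of the matches in the Id2 and Id3 windows overlapped another. A match is a stretch of letters, and no binding was measured here.

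Before the results are given, the arrays as a whole need a short description. Array medians over the genes lay between 5.60 and 5.66, lower quartiles between 3.84 and 3.90 and upper quartiles between 7.35 and 7.44. With 5 arrays a group, the number of arrays sets the precision. Over all genes 954 (4.89%) passed the test, 488 higher (2.5%) and 466 lower (2.39%). In both groups the first 2 replicates separated from the other 3 along the component that held 33.4% of the variance left within groups. The labels name no batch, so differences within these 2 subsets are given beside the results. All 7 epithelial markers (Epcam, Cdh1, Vil1, Cdx2, Krt8, Krt18, Krt19) were above the upper quartile of every array. The mean level of 6 mesenchyme markers was 4.70 to 4.94 in vehicle arrays and 4.78 to 5.11 with pegtarazimod, that of 6 immune markers 4.49 to 4.73 and 4.59 to 4.75, and that of 5 endothelial markers 3.44 to 3.71 and 3.42 to 3.57. These list means cover some brighter genes. The immune marker Lyz2 (7.86 with vehicle and 7.39 with pegtarazimod) was above the upper quartile of every array. The mesenchyme markers Col1a1 (6.34 and 6.48) and Vim (6.06 and 6.69) were above the median of every array. All other markers of the mesenchyme, immune and endothelial lists were below that median. No detection calls were used, so a dim level cannot be told from background.

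**Figure D1:**
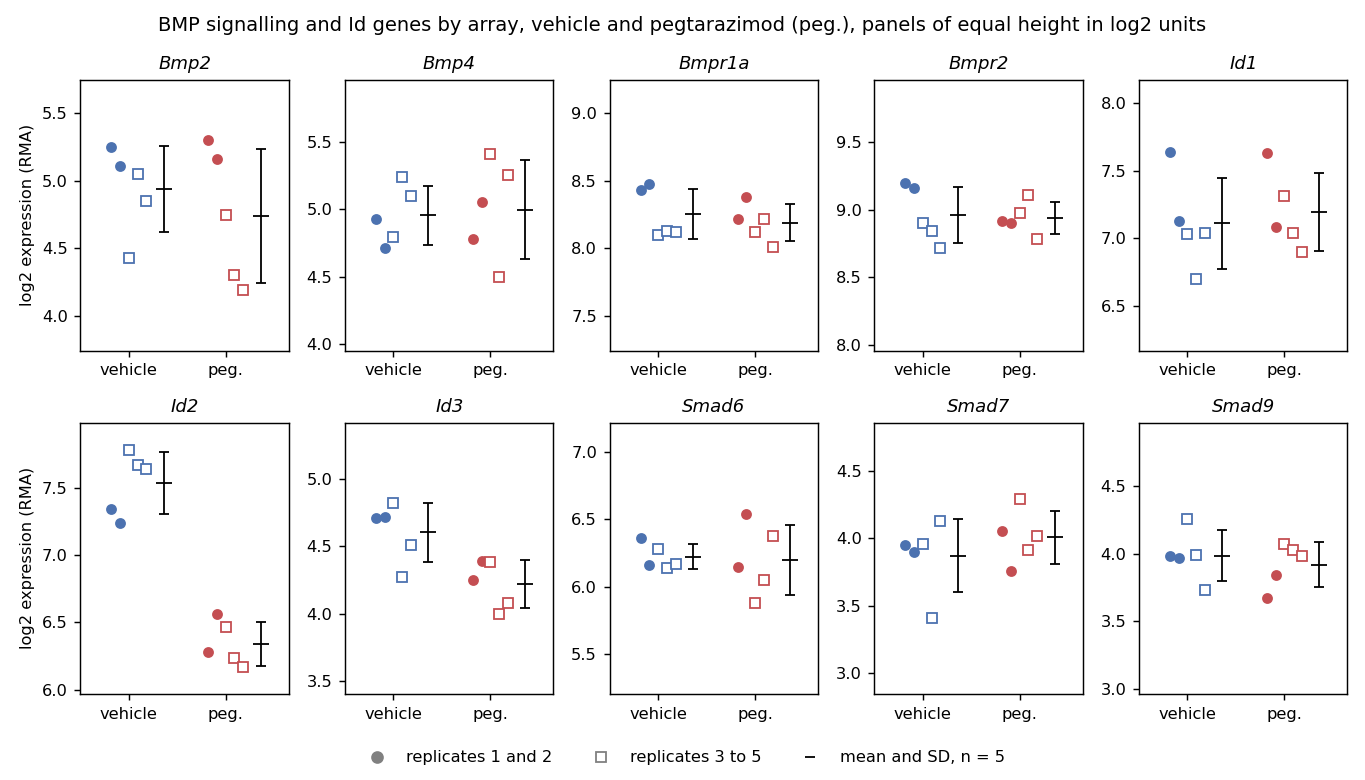
Log2 expression of the 10 BMP signalling and Id genes on each array, with vehicle arrays in blue and pegtarazimod (peg.) arrays in red. Filled circles are replicates 1 and 2, open squares replicates 3 to 5, and black bars the mean and SD of 5 arrays. The groups are separate for Id2 (lowest vehicle array 7.24, highest pegtarazimod array 6.56) and overlap in the other 9 panels.

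Id2 was 7.34, 7.24, 7.78, 7.67 and 7.64 on vehicle arrays 1 to 5 and 6.28, 6.56, 6.47, 6.24 and 6.17 on pegtarazimod arrays 1 to 5. All vehicle arrays were above all pegtarazimod arrays. The means were 7.53 ± 0.23 and 6.34 ± 0.16 (SD, n = 5 per group), a difference of -1.19 ± 0.12 (SE; limma adjusted p = 1.36e-04). By p it ranked 14 among the 19505 genes. Id2 kept its call without any 1 of the 10 arrays, with differences between -1.26 and -1.13.

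Id1, which encodes the Id protein most often used to read BMP activity, was 7.64, 7.13, 7.03, 6.70 and 7.04 on vehicle arrays 1 to 5 and 7.63, 7.08, 7.31, 7.04 and 6.90 on pegtarazimod arrays 1 to 5. Replicate 1 was the highest of both groups, and the groups overlapped almost fully. The difference was 0.08 ± 0.17 (SE; limma adjusted p = 0.849), and its 95% interval ran from -0.27 to 0.44, so that an increase of up to 1.36-fold or a decrease of up to 1.21-fold lay within it.

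Id3, a close relative of Id1, was 4.71, 4.72, 4.82, 4.27 and 4.51 on vehicle arrays and 4.25, 4.39, 4.38, 4.0 and 4.08 on pegtarazimod arrays. Vehicle 4 lay among the pegtarazimod arrays, and the other 4 vehicle arrays were above all of them. Id3 differed by -0.38 ± 0.12 (SE) and missed the threshold (limma adjusted p = 0.0869, 95% interval -0.64 to -0.13 before adjustment). Its adjusted p was 0.0436 in a fit with a term for the 2 subsets of replicates and 0.0465 without vehicle 4. Its level was dim, so the size of its difference may be understated.

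The within-array difference between Id2 and each relative is given as a description, with no test, because Id2 was singled out after its values were seen. Id2 minus Id1 was 0.42 ± 0.52 with vehicle and -0.85 ± 0.31 with pegtarazimod (SD, n = 5 per group), a shift of -1.27. Id2 minus Id3 shifted by -0.81 and Id2 minus Id4 by -1.23. Id4, the remaining Id gene, itself differed by 0.04 (adjusted p = 0.919).

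**Figure D2:**
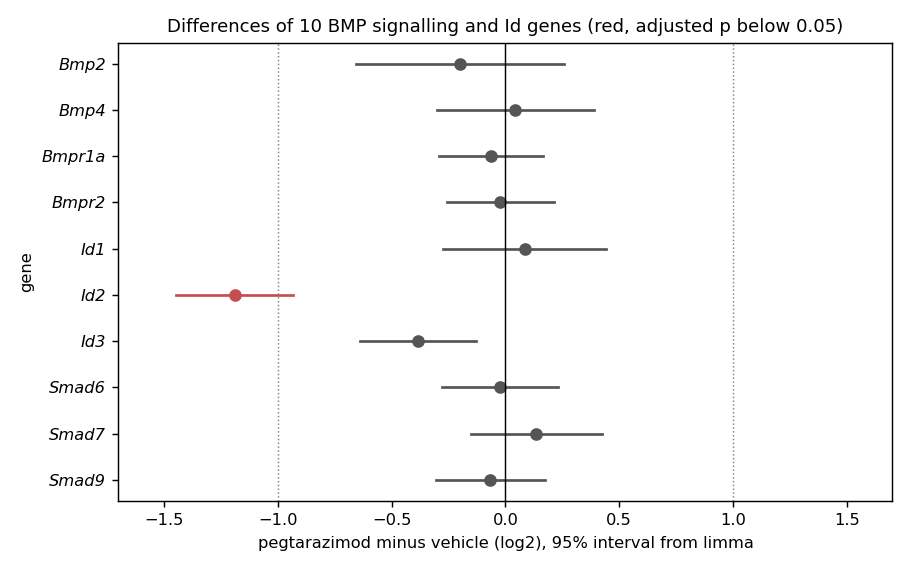
Difference of each of the 10 genes, pegtarazimod minus vehicle, on the log2 scale. Points are estimates, lines their 95% intervals from limma without adjustment, and dotted lines a 2-fold change. Id2 lies at -1.19 with its interval below 0, Id3 at -0.38, and the other 8 intervals include 0.

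The ligand genes did not pass. Bmp2, a villus-side ligand in the intestine, was 5.25, 5.11, 4.43, 5.05 and 4.85 on vehicle arrays and 5.30, 5.16, 4.75, 4.30 and 4.19 on pegtarazimod arrays. Its 4 highest values were those of replicates 1 and 2 of both groups. The difference was -0.20 ± 0.21 (SE; adjusted p = 0.695), with the widest interval of the 10, from -0.65 to 0.26. Bmp4, a ligand known mainly from the stroma beneath the epithelium, ranged from 4.71 to 5.24 with vehicle and from 4.50 to 5.41 with pegtarazimod, and differed by 0.04 ± 0.16 (adjusted p = 0.926, 95% interval -0.30 to 0.39). Both genes were below the median of every array in their mean over arrays.

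The receptor genes were bright and nearly level. Bmpr1a, the type I receptor through which the gut epithelium receives BMP signals, ranged from 8.10 to 8.48 with vehicle and from 8.01 to 8.38 with pegtarazimod. It differed by -0.06 ± 0.11 (SE; adjusted p = 0.818), an interval of -0.29 to 0.17. Bmpr2, the type II partner, was 9.20, 9.16, 8.90, 8.84 and 8.72 on vehicle arrays and 8.92, 8.90, 8.98, 9.11 and 8.78 on pegtarazimod arrays. Vehicle 1 and 2 were the highest 2 of all. Bmpr2 differed by -0.02 ± 0.11 (adjusted p = 0.941), and its interval allowed a decrease of up to 1.20-fold.

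The SMAD genes of the feedback loop did not pass either. Smad6, which blocks the BMP branch and is itself induced by it, was 6.36, 6.16, 6.28, 6.14 and 6.17 on vehicle arrays and 6.15, 6.54, 5.88, 6.05 and 6.38 on pegtarazimod arrays. The pegtarazimod arrays lay on both sides of the vehicle arrays and spread more widely (SD 0.26 against 0.09), and the difference was -0.02 ± 0.12 (SE; adjusted p = 0.946). Smad7, which blocks both the BMP and the TGF-beta branch, had means of 3.87 ± 0.27 and 4.01 ± 0.19 (SD, n = 5 per group), a difference of 0.14 (adjusted p = 0.667). Smad9 had means of 3.99 ± 0.19 and 3.92 ± 0.17, a difference of -0.07 (adjusted p = 0.814). Smad7 and Smad9 lay close to the lower quartile of the arrays, and a change in them could be hidden by background.

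Of the 10 genes, 1 passed the test, beside 4.89% of all genes, and 1 had groups that did not overlap (lower with pegtarazimod), beside 6.71% of all genes (3.35% higher and 3.36% lower). Among the 9 that did not pass, 3 differed upwards and 6 downwards, by 0.02 to 0.38 in size. The median difference of the 10 was -0.04, and that of all 19505 genes was 0.00. The intervals of all 9 lay within a 2-fold change, and those of 7 (all but Bmp2 and Id3) within 1.5-fold. These intervals are for single genes, and bound what the arrays measured, which for dim genes can be less than the change in RNA.

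Within the 2 subsets, Id2 differed by -0.87 in the first (replicates 1 and 2, limma adjusted p = 0.00364) and by -1.40 in the second (replicates 3 to 5, adjusted p = 4.15e-05), at a spread pooled over 4 groups. Over all genes 6.3% passed in the first subset and 3.34% in the second. The vehicle arrays of replicates 1 and 2 were lower in Id2 (7.24 and 7.34) than those of replicates 3 to 5 (7.64 to 7.78), while the pegtarazimod arrays of both subsets overlapped. Id3 differed by -0.39 and -0.38. Of the other 8 genes, 6 had opposite signs in the subsets (Bmp2, Bmpr2, Id1, Smad6, Smad7, Smad9), and none of the 9 passed in either. Whether the difference itself differed between subsets was tested as a contrast. None of the 10 genes passed it after adjustment over all genes (5 of 19505 genes did, 0.0256%), and 2 had an unadjusted p below 0.05, Id2 (0.0157, adjusted 0.503) and Bmpr2 (0.0427, adjusted 0.630), beside 7.65% of all genes.

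**Figure D3:**
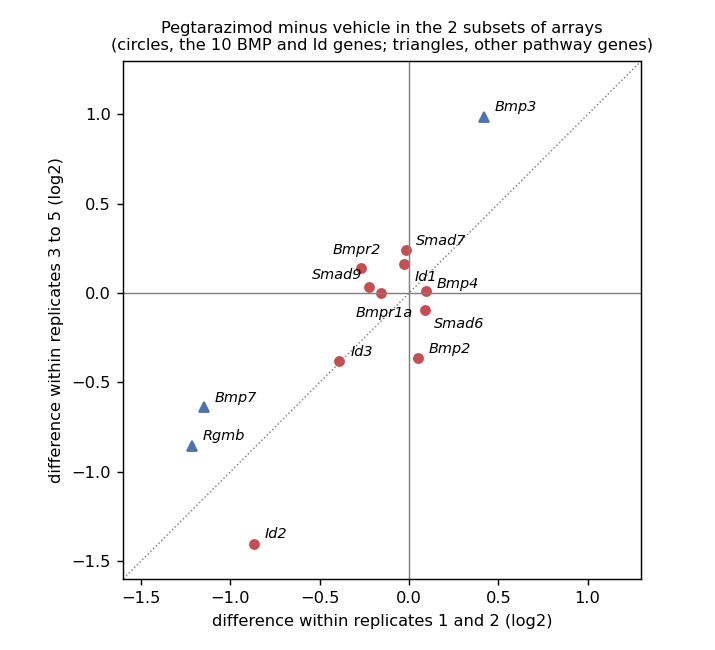
Difference within replicates 1 and 2 (horizontal) against that within replicates 3 to 5 (vertical), log2, for the 10 genes (red circles) and for Bmp3, Bmp7 and Rgmb (blue triangles). The dotted line marks equal differences. Id2 lies at -0.87 and -1.40, Id3 at -0.39 and -0.38, and the other 8 circles between -0.27 and 0.09 horizontally and between -0.36 and 0.24 vertically.

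The rest of the pathway was read from the same fit over all genes, in lists that share members with the 10 genes. Of 61 measured genes of BMP ligands, receptors, antagonists, SMADs and targets, 4 passed (6.56%, beside 4.89% of all genes): Id2, Rgmb and Bmp7 fell and Bmp3 rose. The median difference of the 61 was -0.02. The 4 are 2 ligand genes, 1 co-receptor gene and 1 target gene, and did not move in one direction.

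Among 13 ligand genes 1 rose and 1 fell (15.4%, beside 4.89% of all genes). Bmp7, a ligand that activates the SMAD1, SMAD5 and SMAD9 branch, was 7.45, 7.73, 7.66, 7.72 and 7.81 on vehicle arrays and 6.16, 6.73, 7.01, 7.07 and 7.19 on pegtarazimod arrays. The groups did not overlap, and pegtarazimod 1 was the lowest array. Bmp7 differed by -0.84 ± 0.16 (SE; limma adjusted p = 0.00980), with -1.15 in the first subset and -0.64 in the second. Bmp3, an unusual family member known to oppose other BMPs, was 8.67, 8.60, 8.44, 8.38 and 8.44 on vehicle arrays and 9.12, 8.99, 9.41, 9.25 and 9.57 on pegtarazimod arrays. All pegtarazimod arrays were above all vehicle arrays, and the difference was 0.76 ± 0.11 (adjusted p = 0.00252). Within replicates 1 and 2 Bmp3 differed by 0.42 and did not pass (adjusted p = 0.103), and within replicates 3 to 5 by 0.99 (3.01e-04). The other 11 ligand genes, including Bmp5, Bmp6 and Gdf7, did not pass. Bmp8b, named after its values were seen, passed with the replicate number as a block (-0.62, limma adjusted p = 0.00533).

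Among 11 receptor and co-receptor genes, Rgmb alone passed (9.09%, beside 4.89% of all genes). Its product is a membrane-anchored co-receptor that binds BMP ligands, and the gene is also a marker of crypt stem cells. It was 9.35, 8.98, 9.02, 9.01 and 9.18 on vehicle arrays and 7.80, 8.10, 8.22, 8.01 and 8.40 on pegtarazimod arrays, with no overlap. The difference was -1.0 ± 0.12 (SE; limma adjusted p = 5.37e-04). The type I receptor gene Bmpr1b stood below the lower quartile of every array (2.40 ± 0.12 and 2.47 ± 0.04, SD, n = 5 per group), and no direction is read from it.

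None of 16 measured antagonist genes passed by limma, with 2 at an unadjusted p below 0.05 (19% of all genes). The stromal antagonist gene Grem1 was below the lower quartile of every array in its mean, and Nog, the gene of the antagonist noggin, differed by 0.23 (adjusted p = 0.490). Fstl1, a secreted glycoprotein gene of the follistatin family named after its values were seen, had groups that did not overlap (8.20 ± 0.11 and 8.50 ± 0.11, SD, n = 5 per group) and missed the threshold (adjusted p = 0.0762). Its adjusted p was 0.0339 without the dimmest 50% of genes and 0.0479 under robust priors with an intensity trend.

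None of 14 SMAD and SMAD regulator genes passed by limma, with 3 at an unadjusted p below 0.05 (19% of all genes). The signal-carrying genes Smad1, Smad5 and the shared partner gene Smad4 were bright, and differed by -0.03, -0.22 and -0.01 (adjusted p = 0.926, 0.179 and 0.958). The 2 nearest the threshold, named after their values were seen, were Tob1, an antiproliferative gene whose product binds SMADs (0.47, adjusted p = 0.0599), and Skil, a SMAD co-repressor gene that TGF-beta signals induce (0.29, adjusted p = 0.0810). A term for the 2 subsets brought Tob1 past the threshold (adjusted p = 0.00487), as did leaving out vehicle 1 (0.0487) or pegtarazimod 5 (0.0294), robust priors with an intensity trend (0.0354) and leaving out the dimmest 50% of genes (0.0370). Skil passed without pegtarazimod 5 (0.0450) and without the dimmest 50% of genes (0.0353).

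Among 12 known BMP target genes, which include the 3 Id and 3 SMAD genes above, Id2 alone passed (8.33%, beside 4.89% of all genes). Msx1, Msx2, Atoh8 and Bambi differed by -0.13, -0.05, -0.07 and 0.00, with adjusted p from 0.648 to 0.997. The median difference of the 12 was -0.03.

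**Figure D4:**
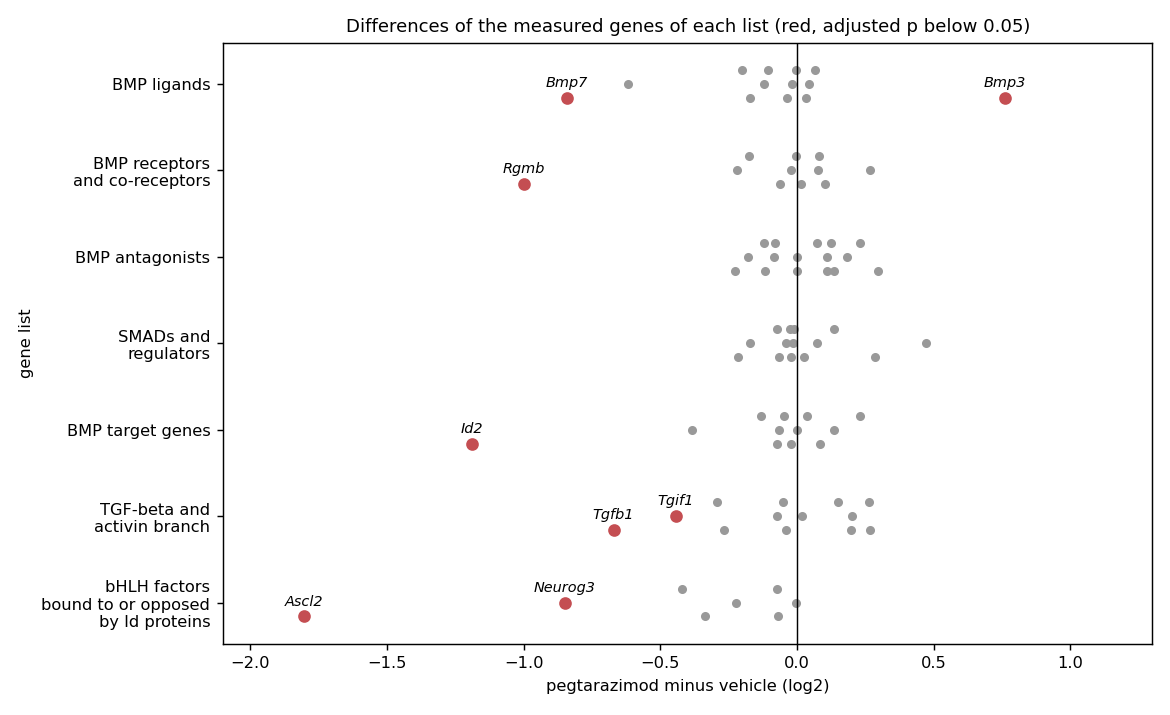
Difference of every measured gene of 7 lists, pegtarazimod minus vehicle, on the log2 scale (points are spread vertically within a list so that they can be seen). Red points passed at an adjusted p below 0.05 and are named, and a gene in several lists appears in each. Id2 is the red point among 12 BMP targets, Bmp7 and Bmp3 lie on opposite sides of 0 among 13 ligands, and the antagonist and SMAD lists have no red point.

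In the neighbouring TGF-beta and activin branch 2 of 13 measured genes fell (2.39% of all genes did) and none rose. Tgfb1, the gene of the ligand TGF-beta 1, was 5.99, 6.34, 6.49, 6.53 and 6.23 on vehicle arrays and 5.49, 5.64, 5.72, 5.81 and 5.57 on pegtarazimod arrays. The groups did not overlap, and the difference was -0.67 ± 0.11 (SE; limma adjusted p = 0.00426), with -0.60 in the first subset and -0.72 in the second. Tgif1, which encodes a homeobox co-repressor of SMAD2 and SMAD3, fell by 0.44 (adjusted p = 0.0299). Its call was lost within replicates 3 to 5 (adjusted p = 0.139) and on leaving out any 1 of 6 arrays, vehicle 2, 3, 4 or 5 or pegtarazimod 1 or 2 (adjusted p = 0.0603, 0.0932, 0.0649, 0.0636, 0.0705 and 0.0818). The receptor genes Tgfbr1 and Tgfbr2 differed by -0.29 and -0.27 and did not pass (adjusted p = 0.256 and 0.278).

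**Figure D5:**
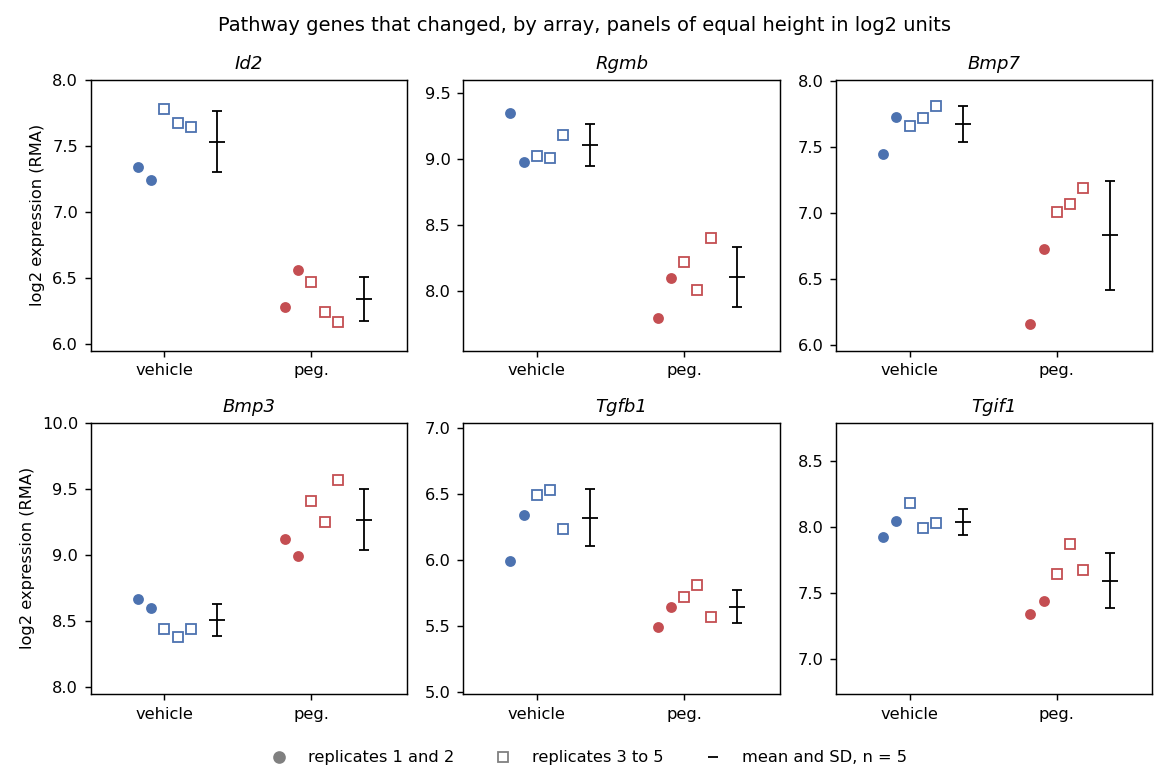
Log2 expression on each array of Id2 and of 5 further genes of the BMP and TGF-beta branches that passed the test, vehicle in blue and pegtarazimod (peg.) in red. Filled circles are replicates 1 and 2, open squares replicates 3 to 5, and black bars the mean and SD of 5 arrays. The groups are separate in all 6 panels, with pegtarazimod higher for Bmp3 and lower for Id2, Rgmb, Bmp7, Tgfb1 and Tgif1.

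Id proteins act on basic helix-loop-helix factors, 8 of which were measured from a list of 9. Of these, 2 fell (2.39% of all genes did) and none rose: Ascl2, the stem cell factor gene (-1.80, limma adjusted p = 3.57e-05), and Neurog3, the endocrine progenitor factor gene (-0.85, adjusted p = 0.00181). The E protein genes Tcf3, Tcf4 and Tcf12, whose products Id proteins bind directly, differed by -0.07, -0.22 and -0.34 and did not pass (adjusted p = 0.743, 0.172 and 0.116). Another gene of the list, Bhlha15, which encodes a factor of secretory cells and was named after its values were seen, differed by -0.42 (adjusted p = 0.120). It passed within replicates 1 and 2 (-0.63, adjusted p = 0.0193), with the replicate number as a block (0.0328) and with a term for the subsets (0.0153). Tcf12 passed without pegtarazimod 3 (-0.42, adjusted p = 0.0438). Atoh1, the secretory lineage factor gene, and Hes1, a Notch target gene, differed by -0.07 and 0.00 (adjusted p = 0.818 and 0.994).

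Of 8 genes known to be high at villus tips, where BMP signalling is strong, none passed by limma. An unadjusted p below 0.05 was found for 4 of them (19% of all genes). Apoa4, Apoa1 and Krt20 differed by 0.85, 0.74 and 0.72 (adjusted p = 0.0883, 0.120 and 0.151), whereas the nucleoside transporter gene Slc28a2 and the adenosine deaminase gene Ada differed by -0.61 and -0.27 (0.0964 and 0.371). The calls were not the same in the subsets. Within replicates 1 and 2, 4 of the 8 passed, all higher (Apoa4, Apoa1, Apoc3 and Krt20), beside 6.3% of all genes. Within replicates 3 to 5, 1 passed, lower (Slc28a2), beside 3.34% of all genes. Each of these genes had the same sign in both subsets. In the limma contrast of the subsets' differences none of the 8 passed after adjustment. Without adjustment 4 had a p below 0.05 (7.65% of all genes). A term for the subsets brought 3 past the threshold, 2 higher and 1 lower.

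Crypt stem cell markers fell and enterocyte markers rose on the same arrays. Of 6 measured crypt stem cell markers 5 fell (2.39% of all genes did). Rgmb and Ascl2, described above, are 2 of these 5 and are not separate evidence here. The mean level of the 6 was 9.05 to 9.26 on vehicle arrays and 7.48 to 8.26 with pegtarazimod. Of 7 enterocyte markers 4 rose (2.5% of all genes did), with a mean level of 8.29 to 9.15 on vehicle arrays and 9.44 to 10.64 with pegtarazimod. Apoa4, described above among villus tip genes, is also 1 of these 7, so their mean level is not separate evidence. The part of these markers in the values of Id2, Rgmb, Bmp7 and Bmp3 was not tested, and in whole organoids fewer cells of a type and less RNA per cell cannot be told apart. Of 6 mesenchyme markers 1 passed (16.7%, beside 4.89% of all genes), Vim, which rose by 0.63 (adjusted p = 0.0240) and did not pass within replicates 1 and 2 (0.32, adjusted p = 0.481) or without vehicle 4 (0.0695), vehicle 5 (0.0544), pegtarazimod 3 (0.0507) or pegtarazimod 5 (0.0527). Col1a1, Col1a2 and Col3a1 differed by 0.14, -0.07 and 0.13 (adjusted p = 0.590, 0.798 and 0.677). None of the immune and endothelial markers passed by limma, with 2 of 6 and 1 of 5 at an unadjusted p below 0.05 (19% of all genes).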

How the data were processed

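Groups and replicate numbers came from the sample titles. The table deposited by the authors gives log2 expression, 1 value a probe set, made with oligo and RMA (background correction, quantile normalisation between arrays, summary per probe set), per the submitters' processing notes; their versions and the build are not stated in these sources. Quantile normalisation hides a change shared by most genes. Of 22203 probe sets, 19572 had 1 gene symbol in the platform annotation, 0 had several and 2631 had none and were left out; all 19572 were found by identifier in the GRCm38.p6 gene table and kept their symbols. For 55 of 19505 genes with several probe sets, the one with the highest mean was used.

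The test was limma (version 3.58.1, R 4.3.3; lmFit and eBayes without covariates), with p-values adjusted by Benjamini-Hochberg over 19505 genes, threshold 0.05. The fit was tested on simulated data, with noise drawn independently for each gene and array. The simulated arrays held no shared shift of replicates 1 and 2, so a fit under such a shift was not tested. P-values measure the spread between these samples, which may in part be technical. A model with 4 groups gave differences within replicates 1 and 2 and within 3 to 5. The 10 genes, the lists and the motifs were chosen with earlier results of these data known, so lists are given by counts, medians and, for markers, mean levels per array, with no set test. Named were the 10 genes, up to 4 genes past the threshold per list with the smallest p, close relatives, and genes stated as named after their values were seen. Some listed genes are not reported here. Figures used Python 3.11.15 and matplotlib 3.10.9.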

Additional observations from a re-analysis of the deposited data

Results flagged for a closer look

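The value of Fstl1 on array pegtarazimod 3 was 8.68, apart from the other 4 pegtarazimod arrays, which lay between 8.43 and 8.50. Its gap to the nearest of them was 0.731 of the group's range, above the Dixon critical value of 0.71 for 5 samples. It was the 1 such group among 54 looked at (27 genes in 2 groups), and chance gives about 1 in 20. The limma adjusted p of Fstl1 was not below 0.05 with this array (0.0762) or without it. Without each array in turn it ran from 0.0709 to 0.184.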

How the results depend on the processing

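Id2 kept its direction and its call under all 21 alternatives run, with differences from -1.40 to -0.87, and Rgmb, Bmp7, Bmp3 and Tgfb1 kept theirs without any 1 array. Without each array in turn, 437 (without vehicle 3) to 1245 (without pegtarazimod 4) of all genes passed, 1 to 2 of the 10 BMP and Id genes (Id3 besides Id2, without vehicle 4), 1 to 2 BMP targets, 0 to 2 SMAD genes, 1 to 2 genes of the TGF-beta branch and 2 to 3 basic helix-loop-helix genes (Tcf12 without pegtarazimod 3).

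The replicate numbers were not taken to pair the samples, and whether they do was not tested. Arrays of the same number correlated in their deviations from the group means at 0.299, 0.310, 0.0993, 0.227 and 0.130. Vehicle 1, 2, 4 and 5 correlated best with the pegtarazimod array of their own number, and vehicle 3 with pegtarazimod 4. Within the subsets of replicates each of these same-number correlations was lower. With the replicate number as a block 1606 genes passed, 2 of the 10 genes (Id3 at an adjusted p of 0.0194 besides Id2), 3 ligand genes (Bmp8b besides Bmp7 and Bmp3), 1 SMAD regulator (Tob1), 2 BMP targets, 3 basic helix-loop-helix genes (Bhlha15 besides Ascl2 and Neurog3) and 4 villus tip genes. With replicates 1 and 2 against 3 to 5 as a block these counts were 1820, 2, 2, 1, 2, 3 and 3.

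Without the dimmest 50% of genes, 1 antagonist (Fstl1) and 2 SMAD regulators (Tob1 and Skil) passed, and under an intensity trend with robust priors 1 antagonist and 1 SMAD regulator. Within replicates 1 and 2, 1 ligand gene passed (Bmp7), 1 antagonist (Crim1, -0.65, adjusted p = 0.0230, named after its values were seen), 3 basic helix-loop-helix genes (Bhlha15 besides Ascl2 and Neurog3) and 4 villus tip genes. Within replicates 3 to 5, 1 gene of the TGF-beta branch passed (Tgfb1) and 1 villus tip gene. Leaving out dim genes leaves fewer genes to adjust over. The cause of the changes in calls was not tested in this or any other setting.

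Signs turned for genes that did not pass over all 10 arrays, and none of the turned values had an adjusted p below 0.409. Quantile normalisation gave Smad6 0.0048, and centring gave Smad6 0.0042, Bmpr2 0.0043, Smad1 0.0020 and Smad4 0.016. Within replicates 1 and 2 Bmp2 was 0.048, Id1 -0.030, Smad6 0.087, Smad7 -0.020, Id4 -0.13, Smad1 0.0092 and Bmpr1b -0.0024. Within replicates 3 to 5 Bmpr2 was 0.14, Smad9 0.037, Smad4 0.037 and Crim1 0.23, against its call in the other direction within replicates 1 and 2. Without 1 array Bmp4 ranged from -0.061 to 0.17, Bmpr2 from -0.085 to 0.036, Id1 from -0.026 to 0.22, Smad6 from -0.11 to 0.057, Smad9 from -0.13 to 0.00039, Id4 from -0.054 to 0.11, Smad1 from -0.085 to 0.019, Smad4 from -0.029 to 0.0092 and Crim1 from -0.20 to 0.020. Signal over background may limit Smad7, Smad9, Id3 and Bmpr1b, whose levels were dim. It may also limit Bmp2 and Bmp4, whose means were below the median of every array. No detection calls were used to settle this.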
